A study of Homo sapiens with 11 samples.

Results

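Of the chromatin domains listed for 3 human lung cell lines, 939 had the same start and the same end in all 3 lists, with the Y chromosome left out. They made up 18.7% of the 5023 domains of DMS153, 23.6% of the 3975 of H209 and 25.4% of the 3698 of MRC5, out of 8968 distinct domains in all. These domains were chosen by their ends in the Hi-C calls, so their number, size, position and score are given as a description, with no test. Expression was not used to choose them and was measured in other libraries, and 6137 of the 57815 genes in the RNA tables had the midpoint of their locus inside an identical domain. DMS153 and H209 (NCI-H209) are established carcinoma lines from small cell tumours of the lung, which carry neuroendocrine features, and MRC5 (MRC-5) is a noncancerous line of lung fibroblasts; the labels name no drug and no genetic change made by the submitters in any line. Hi-C, which reads out how often stretches of DNA touch in fixed nuclei, had 1 library per line, and RNA-seq had 3 libraries each for DMS153 and MRC5 and 2 for H209. RNA levels are in FPKM, read fragments per kilobase of a gene's transcripts, scaled to the library's mapped total. Whether the replicates were grown apart is not labelled: all p-values therefore rest on the spread among these libraries, which may be technical.

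A topological domain is a stretch of chromosome whose parts touch one another more often than they touch the sequence on either side. Its ends are often held by the loop-extruding cohesin complex halted at CTCF sites, and enhancers tend to act on promoters within the same domain. Many domain ends are shared between cell types, while the genes inside can be used in one cell type and silent in another.

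The lines matched their labels at defining markers. The summed level of CHGA, SYP, EPCAM, NCAM1 and INSM1, 5 markers of neuroendocrine carcinoma, was 911 to 1026 FPKM over the DMS153 libraries, 1036 to 1054 in H209 and 0.123 to 0.290 in MRC5, where INSM1 was listed at 0. The summed level of the 5 fibroblast markers DCN, VIM, COL1A1, LUM and COL1A2 was 6.98 to 8.57 FPKM in DMS153, 2.98 to 2.99 in H209 and 6844 to 7572 in MRC5. Between 13425 and 16580 genes per library reached an FPKM of at least 1. Short RNA set the 3 DMS153 libraries apart: the microRNA loci in identical domains summed to at least 121899 FPKM in each of them, against at most 0.316 FPKM in H209 and 0.0903 in MRC5. The immune markers PTPRC, CD68 and CD3E summed to 22.1 to 33.3 FPKM in MRC5, nearly all of it CD68, and to at most 0.830 in the carcinoma lines.

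The promoters of 6 genes are shown because these genes carry the main contrasts in expression below. They are RefSeq sequences of GRCh38.p14, from 250 bases before to 50 after the annotated start, read 5′ to 3′ on the strand of the gene. CDC20 and ELOVL1 lie side by side in 1 identical domain and differed in opposite directions, at chr1:43358731-43359030 on the plus strand and chr1:43367962-43368261 on the minus strand. ACTG2 (a smooth muscle actin, chr2:73892758-73893057, plus) and F3 (tissue factor, chr1:94541710-94542009, minus) were high in MRC5. AP1M2 (an epithelial sorting adaptor, chr19:10587263-10587562, minus) was high in both carcinoma lines, and TPH1 (which makes the serotonin precursor, chr11:18046220-18046519, minus) in DMS153. Capitals mark the GC box GGGCGG on either strand.
CDC20: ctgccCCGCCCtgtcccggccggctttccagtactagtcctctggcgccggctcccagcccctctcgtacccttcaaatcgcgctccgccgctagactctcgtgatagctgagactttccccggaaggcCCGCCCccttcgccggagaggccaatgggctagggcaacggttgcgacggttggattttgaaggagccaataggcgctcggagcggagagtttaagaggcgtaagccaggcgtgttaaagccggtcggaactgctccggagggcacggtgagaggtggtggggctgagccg
ELOVL1: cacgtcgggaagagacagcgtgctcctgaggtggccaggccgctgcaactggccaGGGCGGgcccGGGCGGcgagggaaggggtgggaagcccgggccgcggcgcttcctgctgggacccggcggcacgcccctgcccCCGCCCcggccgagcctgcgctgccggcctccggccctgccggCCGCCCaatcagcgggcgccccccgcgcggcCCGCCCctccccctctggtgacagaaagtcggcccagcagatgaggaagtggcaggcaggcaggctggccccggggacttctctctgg
ACTG2: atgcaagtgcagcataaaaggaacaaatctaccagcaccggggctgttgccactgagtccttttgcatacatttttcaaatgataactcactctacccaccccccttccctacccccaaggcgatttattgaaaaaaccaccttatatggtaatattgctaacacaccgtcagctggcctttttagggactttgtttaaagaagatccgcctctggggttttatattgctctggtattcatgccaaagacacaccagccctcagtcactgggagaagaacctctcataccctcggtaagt
F3: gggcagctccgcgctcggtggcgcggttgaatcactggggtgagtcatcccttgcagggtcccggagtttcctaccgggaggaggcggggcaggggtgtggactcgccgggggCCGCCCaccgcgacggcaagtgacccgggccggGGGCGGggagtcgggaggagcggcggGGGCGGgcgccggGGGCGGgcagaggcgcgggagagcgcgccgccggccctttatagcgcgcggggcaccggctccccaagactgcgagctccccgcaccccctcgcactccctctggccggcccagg
AP1M2: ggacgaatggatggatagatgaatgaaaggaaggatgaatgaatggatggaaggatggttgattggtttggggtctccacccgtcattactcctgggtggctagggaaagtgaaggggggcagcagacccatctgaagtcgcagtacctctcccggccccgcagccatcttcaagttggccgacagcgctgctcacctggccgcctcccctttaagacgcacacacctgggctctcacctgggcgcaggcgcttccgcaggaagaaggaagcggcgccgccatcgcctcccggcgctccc
TPH1: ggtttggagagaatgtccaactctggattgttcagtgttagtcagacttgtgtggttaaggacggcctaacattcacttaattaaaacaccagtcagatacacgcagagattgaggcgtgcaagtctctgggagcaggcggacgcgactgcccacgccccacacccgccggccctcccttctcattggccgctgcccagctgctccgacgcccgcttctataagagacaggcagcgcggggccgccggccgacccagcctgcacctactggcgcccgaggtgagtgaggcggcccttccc
The GC content of the 6 promoters ran from 45.7% in ACTG2 to 77.3% in ELOVL1 and F3. The GC box was found 2 times in CDC20, 5 times in ELOVL1, 4 times in F3 and not in the other 3, and 45.0% of the 35116 promoters in the table hold it on either strand. CDC20 and ACTG2 held the hexamer TTTGAA, the core of the cell cycle element of many mitotic promoters, which 15.2% of all promoters hold on either strand. ACTG2 and F3 held TATAAA (11.5% of all promoters), and ACTG2 and TPH1 the palindrome CAGCTG (17.9%). No match of one motif overlapped a match of another, and a match is a description of the sequence only.

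The median size of the identical domains was 240 kb, with quartiles of 160 and 380 kb and a range of 80 to 2000 kb, and together they covered 300.46 Mb of hg19. The median of all domains was likewise 240 kb in the DMS153 list, and 300.0 kb in the H209 and MRC5 lists. Of the MRC5 domains of 80 to 100 kb 32.3% were identical, of those of 120 to 200 kb 33.4%, of 220 to 400 kb 28.3%, of 420 to 980 kb 19.2% and of 1000 kb or more 7.87%. In the DMS153 list, which holds more small domains, the shares over the same classes were 14.3%, 19.8%, 21.4%, 17.2% and 12.9%, so the order of the smaller classes depended on the list, while the class of 1000 kb or more had the lowest share in both. By chromosome the share of MRC5 domains that were identical ran from 16.9% on chromosome 16 to 42.6% on chromosome 22.

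**Figure D1:**
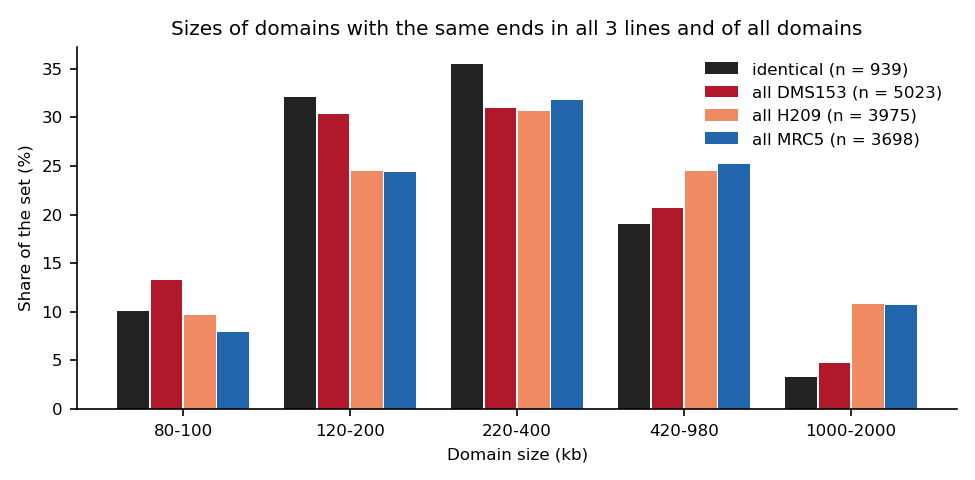
Size of chromatin domains, as the share (%) of each set in 5 size classes (kb); bars stand for the 939 identical domains and for all domains of each line, with 1 Hi-C library per line. Only 31 identical domains reach 1000 kb, against 394 of all MRC5 domains, and 301 and 333 fall in the classes of 120 to 200 and 220 to 400 kb.

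In pairs of lists, 2003 domains were the same in DMS153 and H209 (39.9% and 50.4% of each list), 1394 in DMS153 and MRC5 (27.8% and 37.7%) and 1270 in H209 and MRC5 (31.9% and 34.3%). Of the domains that DMS153 shared with MRC5, 67.4% were also in H209, while of those shared by the carcinoma lines 46.9% were also in MRC5. Just outside the rule lay 630 domains that differed by 1 step of the 20 kb grid at an end in at least 1 list, with a median size of 280 kb. The deposited score, whose meaning is not stated, had a median of 2.557, 2.307 and 2.805 over the identical domains in the DMS153, H209 and MRC5 lists, against 2.22, 2.107 and 2.519 over all domains of the list. The domains just outside had a median score of 2.75 in the MRC5 list.

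Most identical domains stood alone. In 109 cases one ended where the next began, and the longest run joined 4 domains, on chromosome 14 between 50320000 and 51259998. The largest domain, chr12:86360000-88359998, held 13 genes, of which only MGAT4C, a glycosyltransferase gene, reached the level for testing. MGAT4C stood at 8.75, 7.12 and 9.37 FPKM in DMS153, 2 and 1.46 in H209 and 0.000263, 0.033 and 0.0101 in MRC5. The smallest, of 80 kb, included chr1:159900000-159979998 with IGSF9, a neuronal immunoglobulin-family gene, at 18.2, 21 and 17.6 FPKM in DMS153, 27.6 and 29.2 in H209 and 0.000291, 0 and 0 in MRC5. Both genes were thus nearly silent in the fibroblasts and on in both carcinoma lines, one inside the largest domain and the other inside one of the smallest. The other tested gene of the 80 kb domain, the unnamed clone RP11-48O20.4, was called lower in both carcinoma lines, by log2 fold changes of -1.34 and -1.28.

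Identical domains held 20.4 genes per Mb, against 17.9 in all MRC5 domains. Of their 6137 genes, 2132 passed the filter for testing, which asks for 1 FPKM or more in 2 or more of the 8 libraries, or 7.10 per Mb against 5.73. A gene that passed only through the line where it is high had to differ, so counts over tested genes are set beside the same count over all 19066 tested genes. Of the 939 domains, 931 held a gene, 832 a tested gene and 534 at least 2 tested genes. A call required a limma p below 0.05 after adjustment across the 19066 genes together with a log2 fold change of 1 or more in size, on the log2(FPKM + 1) scale, which understates the change of low genes.

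Expression differed widely although the domain ends were the same. Against MRC5, 768 tested genes in identical domains were higher in DMS153 and 378 lower, which is 53.8% of the 2132, beside 50.4% of all tested genes (34% higher, 16.4% lower). In H209 against MRC5, 698 were higher and 366 lower, 49.9% beside 47.9% of all tested genes (33% higher, 14.9% lower). DMS153 against H209 gave 294 higher in DMS153 and 242 lower, 25.1% beside 27.1% (13.8% higher, 13.4% lower). At least 1 of the 3 comparisons called 1483 genes, 69.6% of those tested in identical domains, beside 67.9% over all tested genes. The share in identical domains was thus close to the background in each comparison, and no test of the difference was made. Both comparisons against MRC5 use the same 3 MRC5 libraries, so their values are only set side by side. In bulk RNA, fewer expressing cells and less RNA per cell cannot be told apart.

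**Figure D2:**
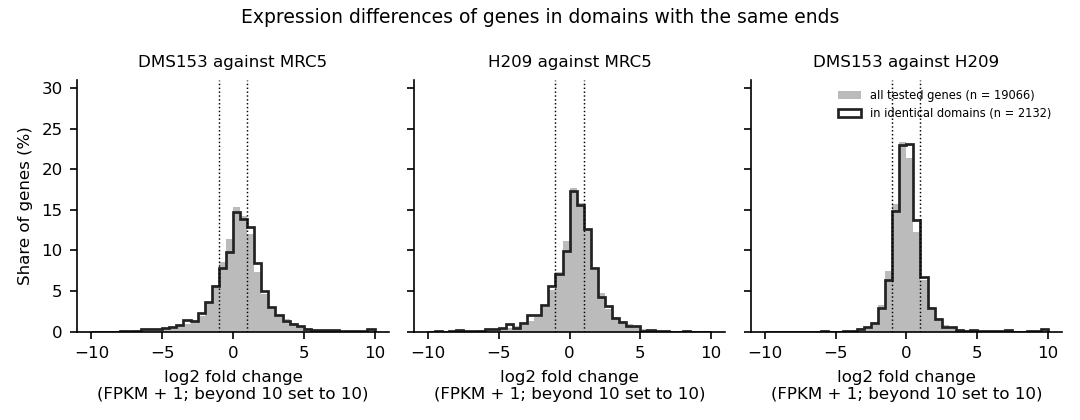
Distribution of log2 fold changes (FPKM + 1) for the 2132 tested genes in identical domains (black line) and all 19066 tested genes (grey), as a share of genes (%), in the 3 comparisons between lines; dotted lines mark -1 and 1. The outlines follow one another closely, with medians of 0.50 and 0.44 for DMS153 against MRC5, 0.43 and 0.46 for H209 against MRC5 and 0.01 and -0.04 for DMS153 against H209.

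The direction of these counts moved with the scaling. Quantile normalization gave 498 higher and 521 lower in DMS153 against MRC5 and 445 and 480 in H209 against MRC5. TPM scaling gave 674 and 511 in DMS153 against MRC5 and, in DMS153 against H209, 199 and 648; median ratio scaling gave 536 and 451 in H209 against MRC5. The median over all tested genes ran from -0.03 to 0.67 in DMS153 against MRC5 over these scalings and one without small RNA and mitochondrial genes. Without the 56 small RNA loci, 717 genes were higher and 377 lower in DMS153 against MRC5, and 248 and 239 in DMS153 against H209.

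Genes of lineage identity in identical domains followed the label of the line. All 4 tested neuroendocrine genes were called higher in H209 and 3 of them in DMS153 against MRC5, with list medians of 5.26 and 4.40 beside 0.46 and 0.44 over all tested genes. Of all tested genes 33% were called higher in H209 and 34% in DMS153. Counts of list members outside identical domains are not given, so no list here or below is shown to be particular to these domains. INSM1, a zinc finger factor that drives neuroendocrine differentiation, lies in chr20:20340000-20559998 and stood at 183, 237 and 168 FPKM in DMS153, 294 and 294 in H209 and 0 in all 3 MRC5 libraries. DLL3, an inhibitory Notch ligand, lies in chr19:39920000-40039998 and stood at 94.5, 105 and 98 FPKM in DMS153, 61.8 and 53.3 in H209 and 0.23, 0.197 and 0.179 in MRC5. No library of the carcinoma lines overlapped with MRC5 at either gene, and the log2 fold change of DLL3 was 6.38 ± 0.08 in DMS153 (limma adjusted p = 6.8e-12) and 5.60 ± 0.08 in H209. SSTR2, a somatostatin receptor, stood at 0.569, 0.533 and 0.547 FPKM in DMS153, 27.2 and 33.5 in H209 and 0.0314, 0.0275 and 0.0352 in MRC5. It was high only in the H209 libraries, with a log2 fold change of -4.33 ± 0.10 in DMS153 against H209. SSTR2 passed the filter only through H209 and so had to differ. NEUROD4, a proneural factor, was at 4.22, 3.71 and 5.28 FPKM in DMS153, 10.9 and 13.8 in H209 and 0 in all 3 MRC5 libraries.

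The only 2 epithelial markers tested in identical domains were likewise high in the carcinoma lines. ELF3, an epithelial transcription factor, stood at 135, 139 and 156 FPKM in DMS153, 67.7 and 61.1 in H209 and 0.16, 0.215 and 0.0375 in MRC5, and AP1M2 at 26.6, 29.8 and 26.1 FPKM in DMS153, 36 and 35.1 in H209 and 0.265, 0.0834 and 0.56 in MRC5. Both were called higher in both carcinoma lines, ELF3 by a log2 fold change of 6.99 ± 0.09 in DMS153 and 5.85 ± 0.10 in H209. Of 14 lung and developmental transcription factors, ELF3 among them, 8 were higher and 4 lower in DMS153 against MRC5, and 7 and 5 in H209, and no scaling made lower calls the majority. The shares over all tested genes were 34% higher and 16.4% lower in DMS153, and 33% and 14.9% in H209. SOX2, a factor of foregut progenitors, stood at 20.0, 18.9 and 18 FPKM in DMS153, 3.82 and 3.7 in H209 and 0, 0.0168 and 0.0417 in MRC5, while TCF21, a mesenchymal factor, stood at 0, 0 and 0.0068 FPKM in DMS153, 0 and 0.00515 in H209 and 20.3, 22.4 and 20.8 in MRC5. The libraries of the carcinoma lines and the fibroblasts did not overlap at either gene. TCF21 passed the filter only through MRC5 and so had to differ.

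Genes of the fibroblast programme fell in both carcinoma lines. All 8 tested fibroblast and matrix genes (ADAMTS5, COL16A1, FBLN1, FBLN2, IGFBP5, MMP2, POSTN and SERPINE2) were called lower in DMS153 and in H209 against MRC5, with medians of -2.89 and -2.91, and in H209 this count was 6 under TPM scaling and under scaling without small RNA. MMP2, a gelatinase, stood at 3, 3.2 and 4.15 FPKM in DMS153, 0.109 and 0.00953 in H209 and 192, 222 and 193 in MRC5. POSTN, which encodes the matrix protein periostin, stood at 0.0352, 0.157 and 0.0732 FPKM in DMS153, 0.446 and 0.239 in H209 and 83.3, 81.9 and 79.1 in MRC5. POSTN passed the filter only through MRC5 and so had to differ. COL16A1, a minor collagen, was lowered less in H209, at 8.9, 8.01 and 8.78 FPKM in DMS153, 31.6 and 39.6 in H209 and 72.6, 75.6 and 71.7 in MRC5, and its call in H209 also ended without the first H209 library (-0.87). Of 10 contractile and focal adhesion genes 8 fell in each carcinoma line, with medians of -2.56 and -2.70. Beside both lists, 16.4% of all tested genes were called lower in DMS153 and 14.9% in H209 against MRC5.

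CAV1 and CAV2, which encode the coat proteins of caveolae, share the domain chr7:115880000-116239998. CAV1 stood at 0.139, 0.0447 and 0.341 FPKM in DMS153, 0.0518 and 0.0258 in H209 and 274, 288 and 272 in MRC5, and CAV2 at 0.13, 0.311 and 0.213 FPKM in DMS153, 0.00222 and 0.028 in H209 and 215, 181 and 213 in MRC5. Every MRC5 library was far above every carcinoma library at both genes, a log2 fold change of -7.90 ± 0.10 and -7.39 ± 0.09 in DMS153. ACTG2 stood at 0.0241, 0.0579 and 0.01 FPKM in DMS153, 0.33 and 0.199 in H209 and 69.3, 79.7 and 80.04 in MRC5. CAV1, CAV2 and ACTG2 passed the filter only through MRC5 and so had to differ. F3, the trigger of blood clotting, stood at 2.74, 2.47 and 2.47 FPKM in DMS153, 0.642 and 0.278 in H209 and 836, 778 and 800.4 in MRC5 and had the lowest log2 fold change of the 2132 tested genes in H209 against MRC5, -9.12 ± 0.10 (limma adjusted p = 2.2e-11).

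Genes of cell division were mostly higher in the carcinoma lines. Of 12 mitosis and cell cycle genes 10 were called higher and 2 lower in both DMS153 and H209 against MRC5, with medians of 3.85 and 3.64, and quantile normalization left 9 higher in DMS153. Among all tested genes 34% were called higher and 16.4% lower in DMS153, and 33% and 14.9% in H209. NUF2, a kinetochore subunit, stood at 102, 101 and 80.02 FPKM in DMS153, 42.1 and 45.1 in H209 and 1.53, 1.18 and 1.24 in MRC5, and FOXM1, a factor that drives mitotic genes, at 51, 61.9 and 54.2 FPKM in DMS153, 78.9 and 84 in H209 and 2.62, 2.82 and 2.47 in MRC5. The 2 that fell were the D-type cyclins CCND1 and CCND2, which drive entry into the cycle through the RB protein. CCND1 stood at 0.654, 0.598 and 0.96 FPKM in DMS153, 0.675 and 0.573 in H209 and 356, 385 and 402 in MRC5, and CCND2 at 0.00264, 0.00346 and 0 FPKM in DMS153, 0.0588 and 0.065 in H209 and 19.4, 18.8 and 18.8 in MRC5. Both cyclin genes passed the filter only through MRC5 and so had to differ. All 7 DNA replication and repair genes were called higher in both carcinoma lines, and 6 of the 7 in DMS153 under quantile normalization and TPM scaling. MCM3, a subunit of the replicative helicase, stood at 87.2, 97.3 and 87.4 FPKM in DMS153, 105 and 121 in H209 and 6.11, 7.5 and 5.82 in MRC5, and PCNA, the sliding clamp of DNA polymerases, at 127, 119.5 and 108 FPKM in DMS153, 289.6 and 323 in H209 and 37.6, 37.9 and 35.4 in MRC5.

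Of 6 chromatin genes 4 were called higher and 1 lower in both carcinoma lines. Beside the lists of this paragraph, 34% of all tested genes were called higher and 16.4% lower in DMS153, and 33% and 14.9% in H209. UHRF1, which recruits the maintenance DNA methyltransferase, stood at 24, 27.5 and 20.4 FPKM in DMS153, 32.7 and 33.8 in H209 and 3.32, 3.31 and 3.45 in MRC5, and DNMT3B, a de novo DNA methyltransferase, at 16.1, 17.8 and 15.8 FPKM in DMS153, 4.1 and 4.09 in H209 and 0.862, 0.813 and 0.909 in MRC5. DNMT3B was also higher in DMS153 than in H209, by 1.78 ± 0.08 (limma adjusted p = 1.4e-07). The 1 that fell was HMGA2, an architectural factor of mesenchymal and embryonic cells, at 6.62e-05, 4.32e-05 and 2.16e-05 FPKM in DMS153, 0.0274 and 0.00366 in H209 and 66.7, 61.4 and 66.1 in MRC5. HMGA2 passed the filter only through MRC5 and so had to differ. DNMT3B was called higher in H209 against MRC5 except under quantile normalization (0.68). Ribosomal protein genes mostly missed the call: 3 of 11 were called lower in each carcinoma line and none higher, while scaling moved the lower calls between 2 and 7 in DMS153 and, in H209, TPM scaling and scaling without small RNA gave 1 higher and 1 lower while median ratio scaling gave 6 lower. Of the 3 H209 calls, RPS14 and RPL23A ended without the first H209 library (-0.89 and -0.92) and without the second MRC5 library (-0.95 and -0.94). RPL29 stood at 134, 145 and 128 FPKM in DMS153, 146 and 167 in H209 and 654, 757 and 665 in MRC5, so the libraries of both carcinoma lines lay below those of MRC5. Of 7 housekeeping genes, HPRT1 (purine salvage) and HNRNPA1 (RNA processing) were called higher in each carcinoma line and SEC61A1, a protein translocation gene, lower in H209; median ratio scaling turned this to 1 higher and 2 lower in H209.

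**Figure D3:**
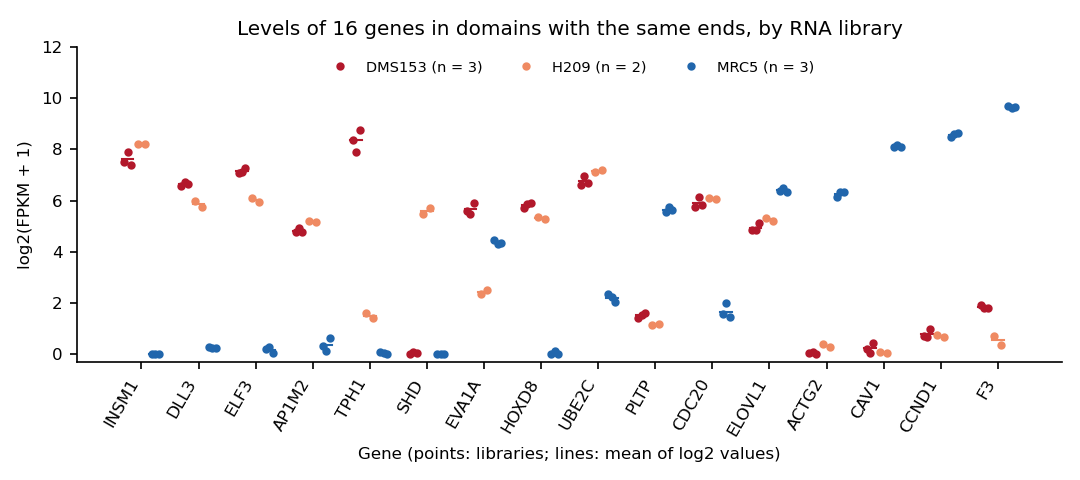
Levels of 16 genes in identical domains, as log2(FPKM + 1) in each RNA library (points) with the mean of the log2 values (short lines), for DMS153 (n = 3), H209 (n = 2) and MRC5 (n = 3). INSM1, DLL3, ELF3 and AP1M2 are near 0 in MRC5, ACTG2 and CAV1 near 0 in both carcinoma lines, and TPH1, SHD and EVA1A separate DMS153 from H209.

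Within a domain, genes could differ in both directions. Among the 534 identical domains with at least 2 tested genes, 93 (17.4%) held both a gene called higher and a gene called lower in DMS153 against MRC5, 251 only higher, 116 only lower and 74 none. The share with both was 22.5% over all MRC5 domains with at least 2 tested genes. At least 3 tested genes were held by 297 of the 534 identical domains, against 1327 of the 2082 MRC5 domains. The shares were not matched for the number of genes. In H209 against MRC5 the counts were 82, 229, 117 and 106, and in DMS153 against H209 they were 23, 150, 111 and 250. Of 1300 neighbouring pairs of tested genes in the same identical domain, both were called in DMS153 against MRC5 in 404, in the same direction in 329 and in opposite directions in 75. Both were called in 31.1% of these pairs and in 31.3% of the pairs over all MRC5 domains, and of those called 18.6% and 21.2% were opposite, so the pairs in identical domains were near the background. Neighbouring loci can overlap, and reads of overlapping genes cannot be told apart because strand use is not stated.

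**Figure D4:**
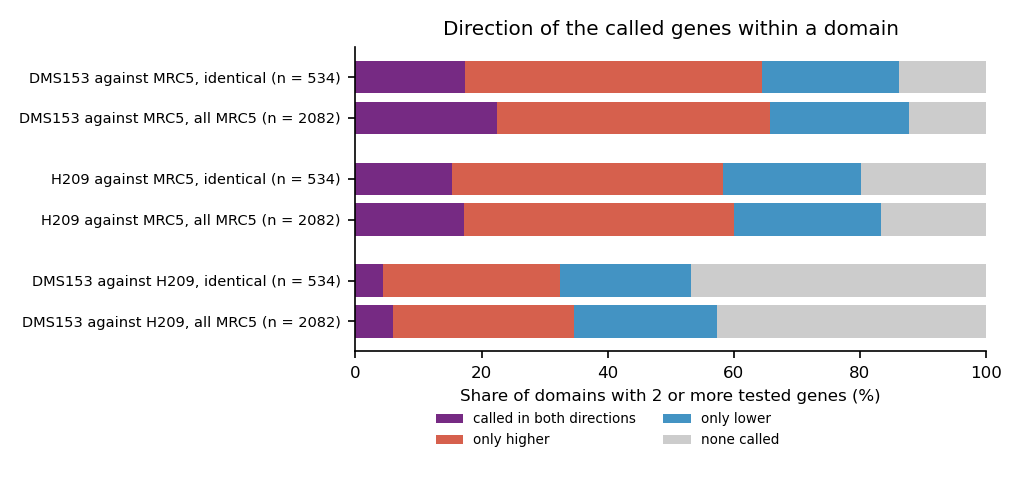
Share (%) of domains with at least 2 tested genes in which called genes lay in both directions, only higher, only lower or in none, for the identical domains (n = 534) and all MRC5 domains (n = 2082) in the 3 comparisons. Both directions make up 17.4% and 22.5% in DMS153 against MRC5, 15.4% and 17.2% in H209 against MRC5 and 4.31% and 5.96% in DMS153 against H209. The sets are not matched for the number of tested genes in a domain.

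The domain chr20:44420000-44599998, of 180 kb with 12 tested genes, joined opposite changes of nearly equal size. UBE2C, the ubiquitin-conjugating enzyme of the anaphase-promoting complex, stood at 97.4, 124 and 101 FPKM in DMS153, 139 and 146 in H209 and 4.06, 3.69 and 3.1 in MRC5. PLTP, a phospholipid transfer protein, had its midpoint 90.7 kb away and stood at 1.69, 1.88 and 2.04 FPKM in DMS153, 1.2 and 1.29 in H209 and 46.4, 52.3 and 48.1 in MRC5. CTSA, a lysosomal carboxypeptidase next to PLTP, stood at 44.1, 37.5 and 53.8 FPKM in DMS153, 31.5 and 35.7 in H209 and 157, 173 and 162 in MRC5. Both carcinoma lines were thus above MRC5 at UBE2C and below it at PLTP and CTSA, with no overlap between libraries, and the log2 fold changes in H209 were 4.96 ± 0.12, -4.48 ± 0.09 and -2.26 ± 0.13. The loci of CTSA and PLTP overlap by a few bases. None of the other 9 tested genes was called in DMS153 against MRC5, and 2 of them, PCIF1 and ZSWIM1, were called higher in H209 (ZSWIM1 not under median ratio scaling or quantile normalization).

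In chr2:74040000-74379998, of 340 kb, ACTG2 was near 0 in the carcinoma lines while TET3, which oxidizes methylated cytosine, was higher. TET3 stood at 9.7, 10.8 and 10.4 FPKM in DMS153, 13.2 and 12.6 in H209 and 1.37, 0.993 and 1.29 in MRC5. Its log2 fold change was 2.35 ± 0.09 in DMS153 and 2.65 ± 0.10 in H209, against -6.23 ± 0.08 and -5.93 ± 0.09 for ACTG2. In chr1:43680000-43899998, CDC20, the activator of the anaphase-promoting complex, stood at 53.3, 70.2 and 55.5 FPKM in DMS153, 67.1 and 65.8 in H209 and 1.97, 2.97 and 1.71 in MRC5. ELOVL1, a fatty acid elongase, follows at chr1:43829068-43833696, with its midpoint 4.63 kb from that of CDC20, and stood at 28.2, 27.7 and 33.8 FPKM in DMS153, 39.3 and 35.9 in H209 and 81.2, 88.9 and 80.03 in MRC5. The log2 fold changes in DMS153 were 4.25 ± 0.15 for CDC20 and -1.45 ± 0.09 for ELOVL1 (limma adjusted p = 2.4e-07). In H209 ELOVL1 was at -1.13 ± 0.10, a call that ended under TPM scaling (-0.92) and under scaling without small RNA (-0.89).

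Other identical domains with genes in both directions held an epithelial, a replication and a methylation gene beside genes of other functions. In the 80 kb domain chr19:10680000-10759998, AP1M2 was higher in DMS153 than in MRC5 and SLC44A2, a choline transporter-like gene, lower, at 31.7, 38.7 and 29.2 FPKM in DMS153, 90.04 and 118 in H209 and 155, 176 and 162 in MRC5. In chr11:61560000-61879998, FEN1, a flap endonuclease, rose and FTH1, the ferritin heavy chain, fell. FEN1 stood at 25.4, 27.8 and 24.2 FPKM in DMS153, 51.2 and 53 in H209 and 2.58, 3.7 and 2.81 in MRC5, and FTH1 at 1582, 1677 and 1621 FPKM in DMS153, 1793 and 1838 in H209 and 10132, 12029 and 10488 in MRC5. The fatty acid desaturase genes of the same domain were divided: FADS1 and FADS2 were called higher in DMS153 (1.59 ± 0.07 and 1.58 ± 0.08) and FADS3 lower (-2.40 ± 0.07). The loci of FEN1, FADS1 and FADS2 overlap in the tables, so their reads may be shared. In chr19:4800000-5039998, UHRF1 was higher in both carcinoma lines and PLIN3, a lipid droplet protein, lower, at 2.29, 2.77 and 3.14 FPKM in DMS153, 8.21 and 5.71 in H209 and 58.5, 71.1 and 64.8 in MRC5.

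In a few identical domains every tested gene that is not a small RNA or an unnamed clone moved alike. Of the 212 domains with at least 3 such genes, all were called higher in DMS153 against MRC5 in 7 and all lower in 6, and in H209 against MRC5 in 13 and 5. These are 3.30% and 2.83% for DMS153 and 6.13% and 2.36% for H209, beside 3.41%, 1.56%, 4.20% and 1.66% of the 1025 such MRC5 domains, and no test of the difference was made. In chr11:111140000-111319998, COLCA1 and COLCA2 and the lymphoid coactivator gene POU2AF1 were higher in both carcinoma lines. POU2AF1 stood at 24.2, 25.5 and 26.7 FPKM in DMS153, 2.48 and 1.97 in H209 and 0.0023, 3.25e-06 and 0 in MRC5. The loci of COLCA1 and COLCA2 overlap. In chr11:68860000-69499998, CCND1 and its neighbours ORAOV1 and MYEOV were lower in both. ORAOV1, whose locus overlaps that of CCND1, stood at 9.66, 9.1 and 8.27 FPKM in DMS153, 11.9 and 13.8 in H209 and 45, 55.5 and 47.4 in MRC5. MYEOV was near the limit of the call at -1.09 ± 0.14 in DMS153, and reached -0.98 without the third MRC5 library, which ended its call. In chr4:79860000-81279998, the anthrax toxin receptor gene ANTXR2, PRDM8 and the growth factor gene FGF5 were lower in both, FGF5 at 0.0207, 0.00961 and 0.0193 FPKM in DMS153, 0.265 and 0.305 in H209 and 45.7, 36.1 and 43.7 in MRC5. FGF5 passed the filter only through MRC5 and so had to differ.

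**Figure D5:**
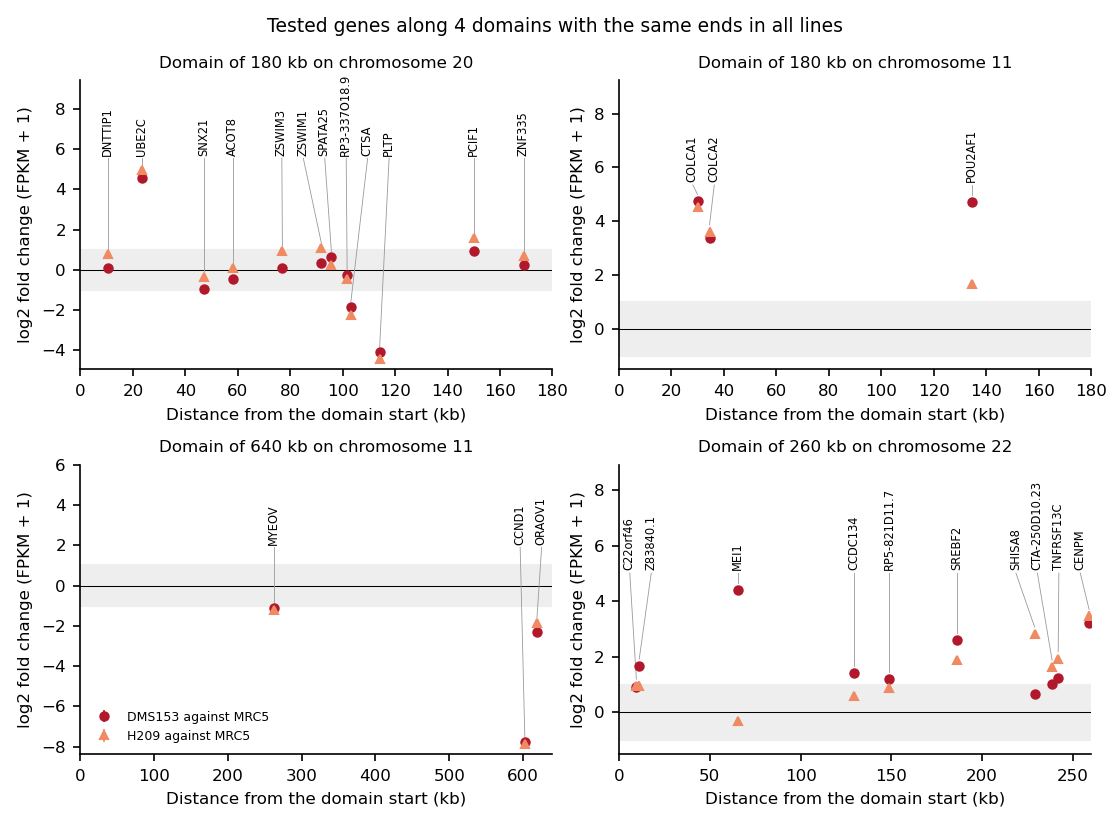
Log2 fold change (FPKM + 1, with standard errors no larger than the symbols) against MRC5 of every tested gene along 4 identical domains chosen after their values were seen, by the distance (kb) of the gene's midpoint from the domain start, for DMS153 (circles) and H209 (triangles); the grey band spans -1 to 1. UBE2C and PLTP lie on opposite sides of the band on chromosome 20, all genes lie above it in the 180 kb domain and below it in the 640 kb domain of chromosome 11, and MEI1 and SHISA8 separate DMS153 from H209 on chromosome 22.

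The 5 tested HOXD genes lay in chr2:176980000-177519998, of 540 kb, and were near or at 0 in the fibroblasts, where the domain had the same ends. HOX genes set position along the body axis. HOXD8 stood at 51, 58.1 and 58.8 FPKM in DMS153, 39.6 and 37.4 in H209 and 0, 0.0754 and 0 in MRC5, HOXD9 at 25.6, 29.6 and 29.3 FPKM in DMS153, 15.7 and 15.8 in H209 and 0 in all 3 MRC5 libraries, and HOXD4 at 18.4, 20.9 and 21.4 FPKM in DMS153, 7.16 and 7.21 in H209 and 0 in all 3 MRC5 libraries. HOXD1 stood at 5.38, 5.51 and 5.47 FPKM in DMS153, 4.78 and 4.47 in H209 and 0 in all 3 MRC5 libraries, and HOXD3 was likewise near or at 0 in MRC5. All 5 were called higher in both carcinoma lines. Of the 8 tested HOX genes of identical domains 5 were higher and none lower in DMS153 against MRC5, and 7 and none in H209. The shares over all tested genes were 34% higher and 16.4% lower in DMS153, and 33% and 14.9% in H209. Median ratio and TPM scaling gave 1 lower in DMS153 and quantile normalization 2, and the last gave 5 higher and 1 lower in H209. HOXD4 was higher in DMS153 than in H209, by 1.37 ± 0.09 (limma adjusted p = 9.8e-07), although TPM scaling brought this to 0.79 and ended the call. MTX2, a mitochondrial gene at the other side of the same domain, stood at 41.7, 39.7 and 41.9 FPKM in DMS153, 37.2 and 38.4 in H209 and 24.8, 27 and 27.3 in MRC5 and was not called in any comparison.

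The domain with the most tested genes, chr19:44320000-44999998 with 27, holds a cluster of zinc finger genes. In H209 against MRC5 12 of the 27 were called higher, and in DMS153 1 was higher and 3 lower. Over all tested genes 33% were called higher and 14.9% lower in H209 against MRC5, and 34% and 16.4% in DMS153. No test of the difference was made. ZNF235 stood at 11.9, 12.8 and 12.6 FPKM in DMS153, 18.8 and 18.5 in H209 and 3.85, 4.45 and 4.31 in MRC5. ZNF229 was called lower in DMS153 against MRC5, at no more than 0.0115 FPKM in all 3 DMS153 libraries, 8.33 and 6.27 in H209 and 4.26, 2.83 and 3.19 in MRC5, and its log2 fold change in DMS153 against H209 was -3.04 ± 0.15 (limma adjusted p = 2.1e-07). Over all 41 tested zinc finger genes of identical domains 18 were higher and 1 lower in H209 against MRC5, while 7 were higher and 3 lower in DMS153, which turned to 3 and 5 under quantile normalization. Over the scalings the higher calls ran from 10 (quantile normalization) to 26 (TPM) in H209, and reached 15 in DMS153 under scaling without small RNA. These genes are close copies of one another, so reads may be split between them.

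The carcinoma lines also differed from each other inside identical domains. TPH1, in chr11:18020000-18139998, stood at 329.9, 239 and 436 FPKM in DMS153, 2.07 and 1.65 in H209 and 0.0671, 0.0293 and 0.00273 in MRC5. All DMS153 libraries were above all others, a log2 fold change of 6.84 ± 0.21 in DMS153 against H209 (limma adjusted p = 1.2e-08). MEI1, a meiotic recombination gene, stood at 24.6, 32.4 and 27.8 FPKM in DMS153, 0.131 and 0.0544 in H209 and 0.239, 0.588 and 0.292 in MRC5. In the same domain, chr22:42080000-42339998, SHISA8 went the other way at 0.623, 0.524 and 0.569 FPKM in DMS153, 7.03 and 5.26 in H209 and 0, 0 and 0.00772 in MRC5, with 4.74 ± 0.14 for MEI1 and -2.17 ± 0.11 for SHISA8 in DMS153 against H209. SHD, an adaptor protein gene in chr19:4260000-4359998, stood at 1.74e-05, 0.0714 and 0.0375 FPKM in DMS153, 43.3 and 51.8 in H209 and 0.0125, 0.0132 and 0.00999 in MRC5. The tumour antigen gene MAGEA4, in chrX:150900000-151819998, stood at 0, 0.00437 and 0.00244 FPKM in DMS153, 20.7 and 15.8 in H209 and 0 in all 3 MRC5 libraries, while GABRA3, a GABA receptor subunit gene of the same domain, stood at 6.68, 7.71 and 7.76 FPKM in DMS153, 7.23 and 6.86 in H209 and 0.000541, 0.000352 and 0.000533 in MRC5. Only the H209 libraries were high at MAGEA4, and GABRA3 was not called between the carcinoma lines (0.06 ± 0.09). SHD, SHISA8 and MAGEA4 passed the filter only through H209, and MEI1 only through DMS153, so these genes had to differ.

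In 117 domains with a tested gene no gene was called in any comparison, of which 78 held 1 tested gene, 28 held 2, 10 held 3 and 1 held 4. They made up 14.1% of the identical domains with a tested gene, beside 11.3% of all MRC5 domains with one. These shares were not matched for the number of tested genes in a domain. Among genes with at least 5 FPKM in every line, those that differed least were ZC3H15, a zinc finger protein gene, and NOL10, a gene of ribosome assembly. ZC3H15 stood at 50.3, 44 and 42.9 FPKM in DMS153, 47 and 47.1 in H209 and 45.6, 46.6 and 49.1 in MRC5, and NOL10 at 13.1, 12.3 and 13.2 FPKM in DMS153, 13.8 and 13.8 in H209 and 13.6, 14.7 and 13.6 in MRC5. The libraries of all lines overlapped at ZC3H15. A missed call does not show that the levels were equal.

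MicroRNA loci separated DMS153 from the other lines. Of 159 listed loci 30 passed the filter, each with a mean of at least 1 FPKM in DMS153 and none with such a mean in H209 or MRC5. All 30 passed only through DMS153 and so had to differ, and all were called higher in DMS153 against MRC5. At 28 of them every H209 and MRC5 library was listed at 0. Quantile normalization left 29 of the 30 called, which does not lift this limit. MIR144, in chr17:27040000-27279998, whose locus chr17:27188090-27188984 in the tables is longer than a single hairpin, was at 100371, 92649 and 106693 FPKM in the DMS153 libraries. MIRLET7B was at 14436, 12295 and 15032 FPKM in DMS153, and MIRLET7A3 in the same domain at 3067, 2953 and 3165 FPKM. MIR21 was at 6463, 5989.9 and 6738 FPKM in DMS153, and MIR10B, inside the HOXD domain, at 1074, 1012 and 1180.4 FPKM. All of these 5 loci were listed at 0 in every H209 and MRC5 library. Of the 30 loci 26 matched a mature sequence in RefSeq (GRCh38.p14), and the tables do not say which arm was measured. Mature sequences of the 5 named loci are shown because these loci are named above, with the seed, bases 2 to 8, in capitals. Only the 5p arm of MIR21 and only the 3p arm of MIR10B were matched, so the other arm of each is not shown.
hsa-let-7b-5p: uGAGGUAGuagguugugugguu
hsa-let-7a-5p: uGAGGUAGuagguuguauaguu
hsa-let-7b-3p: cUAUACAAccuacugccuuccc
hsa-let-7a-3p: cUAUACAAucuacugucuuuc
hsa-miR-144-3p: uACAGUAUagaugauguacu
hsa-miR-144-5p: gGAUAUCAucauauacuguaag
hsa-miR-21-5p: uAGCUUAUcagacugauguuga
hsa-miR-10b-3p: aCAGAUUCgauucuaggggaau
The let-7 pair shares its seeds on both arms. Among small RNA loci of other kinds, 18 of 19 tested Y RNA loci in identical domains were also called higher in DMS153 against MRC5. Through which lines the Y RNA loci passed the filter was not counted, so the limit given for the microRNA loci may hold for them too. Of all small RNA loci, 51 of 56 tested in identical domains were called higher, beside 314 of 379 tested in the whole series. The rise was thus not particular to identical domains. Whether the RNA preparation differed between lines was not tested. VMP1, whose locus holds MIR21, went the other way, at 37.1, 38.7 and 39.9 FPKM in DMS153, 35.2 and 29.7 in H209 and 110.3, 94.5 and 99.6 in MRC5.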

How the data were processed

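Domain lists and gene tables were used as the authors deposited them. Per the submitters' processing notes, Bowtie2, TopHat2 2.1.0, Cufflinks 2.2.0, HOMER 4.8 and hg19 were used, with no role given. The FPKM values deposited by the authors are scaled to the mapped fragments of a library, so a level depends on what else the library holds; count depth is unknown. The deposited score of each domain served only for description and 1 alternative. Titles write DM153 where the cell line field has DMS153. Genes reaching 1 FPKM in 2 or more libraries were fitted as log2(FPKM + 1) with limma 3.58.1 in R 4.3.3, over all 8 libraries with 5 residual degrees of freedom, a trend and Benjamini-Hochberg adjustment over 19066 genes, 2-sided. The fit was tested on simulated data. A gene belonged to a domain that held its locus midpoint; coordinates are hg19 and count from 1. The deposited tables mark the status of 14 genes in identical domains as failed; their values were kept. Alternatives covered the pseudocount, the filter, other scalings, left-out libraries and looser or stricter domain matching.

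Members and gene lists were chosen with earlier results of these data known. Named genes are the 8 highest and 8 lowest called per comparison, up to 2 per list and direction, the 8 least different, and genes of the largest, smallest, fullest and most divided domains. ADAMTS5, ANO1, ANO1-AS1, ANTXR2, CDC20, COLCA1, COLCA2, ELOVL1, ENPP1, EVA1A, FADS1, FADS2, FADS3, FBLN1, FBLN2, FGF5, FTH1, IGFBP5, MIRLET7A3, MIRLET7B, MYEOV, ORAOV1, PLIN3, POU2AF1, PRDM8, RP11-48O20.4 and SHISA8 fall outside this rule and were chosen after their values were seen.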

Additional observations from a re-analysis of the deposited data

Results flagged for a closer look

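Of the 2132 tested genes in identical domains, 5 were called higher than MRC5 in one carcinoma line and lower in the other. At each, the difference between the carcinoma lines was itself past the threshold (limma adjusted p over all genes tested). The same count was not made over all tested genes, so it is not given as a trait of identical domains. EVA1A, a gene of autophagy and cell death in chr2:75680000-75859998, stood at 47.6, 44 and 59.7 FPKM in DMS153, 4.12 and 4.68 in H209 and 20.9, 18.8 and 19.3 in MRC5, with a log2 fold change of 3.24 ± 0.12 in DMS153 against H209 (limma adjusted p = 4.9e-08). It was the only tested gene of its domain. ANO1, a calcium-activated chloride channel, stood at 9.66, 9.12 and 11.5 FPKM in DMS153, 0.269 and 0.455 in H209 and 2.19, 1.7 and 1.83 in MRC5, and differed by 3.02 ± 0.12. ANO1-AS1, which overlaps ANO1 and cannot be told apart from it without strand, differed by 3.02 ± 0.13. ENPP1, which makes pyrophosphate outside the cell, stood at 4.62, 4.45 and 4.92 FPKM in DMS153, 0.0226 and 0.00994 in H209 and 1.5, 1.44 and 1.74 in MRC5, and differed by 2.48 ± 0.09. PHLDB2, a cortical adhesion gene, ran the other way, at 0.997, 0.664 and 0.417 FPKM in DMS153, 13.7 and 15.9 in H209 and 6.95, 6.26 and 7.08 in MRC5, and differed by -3.23 ± 0.14 (limma adjusted p = 1.1e-07). The libraries of the 3 lines did not overlap at any of these genes. The calls against MRC5 on 1 side were near the threshold: EVA1A reached 0.89 in DMS153 under TPM scaling, ENPP1 0.91 under TPM scaling and 0.40 under quantile normalization in DMS153, ANO1-AS1 0.95 under quantile normalization in DMS153, and ANO1 in H209 -0.97 under scaling without small RNA and -0.995 without the first H209 library. PHLDB2 in H209 reached 0.92 without the second H209 library, 0.97 without the second MRC5 library and with the replicate number as a block, 0.68 under median ratio scaling and 0.58 under quantile normalization.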

How the results depend on the processing

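The number of identical domains rests on exact ends: 1569 domains (median 260 kb) matched within 20 kb at both ends, 1702 (260 kb) within 40 kb, and 519 when each list kept only domains at or above its median score. Matching within 20 and 40 kb raised the called genes to 1946 and 2116 in DMS153 against MRC5, 1810 and 1956 in H209 against MRC5, and 929 and 1007 in DMS153 against H209. TPM scaling raised the count of DMS153 against H209 to 847. Leaving out 1 replicate gave 1131 to 1155, 1054 to 1068 and 520 to 543; where it leaves 1 H209 library, that library is assumed to vary like the others. Domains with calls in both directions, in the same order of comparisons, fell to 22, 17 and 4 at a minimum absolute log2 fold change of 2; to 50 in H209 against MRC5 with the whole locus inside; and to 12 in DMS153 against H209 without small RNA loci and unnamed clones, an alternative chosen after seeing the data. Libraries with the same replicate number paired weakly at most: their deviations correlated at -0.01 to 0.12, against -0.12 to 0.05 for different numbers. A fit with the number as a block gave 1147, 1053 and 529 called genes. The other settings kept these counts within 1.5 times. For 333 calls of single genes recomputed under 18 settings, 81 of 5978 values missed the threshold, in 44 of the calls, and none reversed. Deposited intervals had a median half-width of 10.6% to 13.6% of the value at 1 to 10 FPKM, so small differences at low levels were not resolved.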

Other observations

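Genes of nerve cells and synapses were also present. Of 10 tested neuronal and synaptic genes in identical domains 8 were called higher and 1 lower in both carcinoma lines against MRC5, and so were 8 and 1 of 10 potassium channel genes, some of which are in both lists. Among all tested genes 34% were called higher and 16.4% lower in DMS153, and 33% and 14.9% in H209. Quantile normalization gave 7 and 2 for the neuronal list in H209. KCNA1, a voltage-gated channel, stood at 50.8, 53.7 and 46.5 FPKM in DMS153, 93.1 and 94.6 in H209 and 0.00106, 0.000173 and 0.000305 in MRC5. SNAP25, which drives vesicle fusion, stood at 56.4, 51.7 and 57.3 FPKM in DMS153, 64.2 and 72 in H209 and 2.23, 1.92 and 1.74 in MRC5. GAP43, a growth cone protein, was high in DMS153, lower in H209 and near 0 in MRC5, at 28.4, 20.4 and 39.1 FPKM in DMS153, 5.31 and 7.95 in H209 and 2.31e-05, 0.036 and 0.00531 in MRC5. ADCYAP1, a neuropeptide gene in the domain chr18:860000-2559998, stood at 19.1, 17 and 20.1 FPKM in DMS153, 102 and 107 in H209 and 0 in all 3 MRC5 libraries.

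In identical domains 44 genes had a mean of at least 5 FPKM in MRC5 and under 0.5 in every carcinoma library, 2.06% of the tested genes beside 1.43% of all tested genes, and 66 were under 0.5 in every MRC5 library with means of at least 5 FPKM in both carcinoma lines (3.10% beside 3.15%). PLIN2, which coats lipid droplets, was high in MRC5, lower in H209 and near 0 in DMS153, at 0.364, 0.39 and 0.485 FPKM in DMS153, 17.7 and 18.4 in H209 and 102, 106 and 95.3 in MRC5. RAI14, an actin-binding protein gene, had the same order, at 1.5, 3.55 and 1.7 FPKM in DMS153, 32.8 and 43.1 in H209 and 239, 233 and 263 in MRC5. The 474 tested genes with a midpoint within 20 kb of a domain end had median levels (DMS153, H209, MRC5) of 8.40, 8.36 and 5.25 FPKM. Those of the 518 tested genes more than 100 kb from an end were 5.43, 5.28 and 3.68 FPKM. The latter can lie only in larger domains, so distance and domain size cannot be told apart here.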
